A study of Mus musculus with 31 samples.

Results

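The transcripts of 9 genes that carry interferon signals from the cell surface to the nucleus were followed in 31 mouse tumors, out of 46072 genes listed for each tumor. They were the receptor chains Ifnar1, Ifnar2, Ifngr1 and Ifngr2, the kinases Jak1, Jak2 and Tyk2, the transcription factor Stat2 and the inhibitor Socs1. They were taken by gene name and by their place in the pathway, with earlier results of these data known. Tumors of 2 syngeneic models, RM9 (a mouse prostate cancer line) and MC38 (a mouse colon cancer line), were grown from injected cells under the skin of the right hind leg of wild-type male C57BL/6J mice, bought at 6 to 7 weeks of age. At a diameter of 8 mm, tumors received a single dose of 15 Gy of radiation therapy (RT) and were collected 3, 12 or 24 h later from separate mice, and 1 mRNA library was made from whole tumor tissue of each mouse. Each model had 4 control mice without treatment and 4 mice at each time, except 3 mice in the RM9 group at 24 h. The control libraries carry the 3 h time label, so at 12 and 24 h the effect of RT and of elapsed time cannot be told apart. Both lines grew away from their organ of origin, and each model is a single transplanted line.

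Type I interferons bind a receptor of the IFNAR1 and IFNAR2 chains, which hold the kinases TYK2 and JAK1, and interferon gamma binds IFNGR1 and IFNGR2, which hold JAK1 and JAK2. The kinases phosphorylate STAT proteins. After type I interferon, STAT2 enters the nucleus in a complex with IRF9 that binds the interferon-stimulated response element, while the STAT complex formed after interferon gamma lacks STAT2 and binds the gamma-activated site. SOCS1, which is itself made in response to interferon, binds the kinases and damps the signal. In tumors this pathway is known for its part in antigen presentation and in the recruitment of T cells.

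The promoters of Stat2, Socs1 and Ifnar2 are shown because they were the members of this group with letters of either element upstream of their start, and Stat2 and Socs1 were also the members whose levels differed most between the models. The sequences are the 250 bases before the RefSeq start, in build GRCm38.p6, written 5′ to 3′ on the strand of the gene, with matches in capitals. Stat2 lies at chr10:128270248-128270497 (plus strand), Socs1 at chr16:10785537-10785786 (minus strand) and Ifnar2 at chr16:91372533-91372782 (plus strand).
Stat2 promoter: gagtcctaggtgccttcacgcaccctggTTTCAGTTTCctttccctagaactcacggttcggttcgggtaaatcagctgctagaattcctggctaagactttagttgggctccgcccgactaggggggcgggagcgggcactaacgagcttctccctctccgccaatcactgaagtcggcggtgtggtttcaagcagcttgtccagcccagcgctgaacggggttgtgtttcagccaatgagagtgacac
Socs1 promoter: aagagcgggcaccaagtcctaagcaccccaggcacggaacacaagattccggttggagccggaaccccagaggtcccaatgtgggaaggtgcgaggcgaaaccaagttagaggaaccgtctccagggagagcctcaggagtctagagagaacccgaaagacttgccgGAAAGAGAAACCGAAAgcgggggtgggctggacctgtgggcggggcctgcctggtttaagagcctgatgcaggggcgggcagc
Ifnar2 promoter: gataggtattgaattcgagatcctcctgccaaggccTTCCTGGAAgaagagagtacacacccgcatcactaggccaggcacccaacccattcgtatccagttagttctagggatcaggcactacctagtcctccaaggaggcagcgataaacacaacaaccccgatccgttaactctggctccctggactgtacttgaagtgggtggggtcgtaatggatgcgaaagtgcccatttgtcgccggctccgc
The letters searched were GAAA, any 2 bases and GAAA for the interferon-stimulated response element, with TTTC, any 2 bases and TTTC for its other strand. For the gamma-activated site they were TTCNNNGAA, which reads the same on both strands. No match of one element overlapped a match of the other. The Stat2 match, TTTCAGTTTC, lay 222 to 213 bases before the start. Socs1 had 2 overlapping matches, GAAAGAGAAA at 83 to 74 bases and GAAACCGAAA at 77 to 68 bases before the start. The Ifnar2 match, TTCCTGGAA, was a gamma-activated site 214 to 206 bases before the start. The other 6 members had neither set of letters in this window. Of 32851 RefSeq promoters of the same length, 2.98% held the response element letters and 7.02% held the gamma-activated site letters, and a match describes the sequence and not a bound site.

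Ifnar2, Ifnar1 and Ifngr2 sit in a row on chromosome 16 together with Il10rb, a chain of the interleukin-10 and interferon lambda receptors, within 192 kb at chr16:91372783-91565169. Socs1 is on the same chromosome at chr16:10783808-10785536, Stat2 is at chr10:128270576-128292849 and Ifngr1 at chr10:19591949-19610229. Jak1 is at chr4:101152367-101265282, Jak2 at chr19:29251828-29313080 and Tyk2 at chr9:21104069-21127346. These whole-gene positions are those of the deposited tables. They fit the build of GENCODE M21 (GRCm38), although the submitters' notes name GRCm39. Not every gene end is that of M21. Tyk2 differs at both ends (21104068 to 21131243 in M21). Socs1 and Stat2 differ at the lower end (10782240 and 128270559 in M21), and Ifngr2 at the upper end (91565623 in M21). Jak1, Tyk2 and Ifnar2 overlap other annotated genes, and whether counting used the strand is not given in the sources used here.

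Sequencing depth per tumor lay between 21.4 and 29.4 M reads, as computed from the deposited coverage. Values are TPM, the share of each library's transcripts that a gene holds after correction for length, scaled to a fixed total. Mitochondrially encoded genes held 47.3 to 57.2% of TPM in RM9 and 22.5 to 40.6% in MC38, so every other gene was scaled down by a different amount. For this reason calls for the 9 genes and the pathway lists are also given after median-ratio scaling, which sets the typical gene equal between libraries. MC38 control mouse 1 stood apart, with 40.6% mitochondrial TPM against 25.7 to 31.04% in the other MC38 control mice and with a summed level of 6 skeletal muscle markers of 11422 TPM against 18.2 to 1856 TPM. It had the lowest value of its group for 7 of the 9 genes. For the 9 genes, calls that depended on it are given with and without it. Results for the pathway lists, ligands and cell markers are given only with it, so their dependence on this mouse is not shown. Of the tissue markers, the prostate gene Pbsn was listed at 0 in all 31 libraries, and the intestinal factor Cdx2 was listed at 0 in every MC38 library and reached 3.74 to 7.68 TPM in RM9. The epithelial keratin Krt8 was at 463 to 1069 TPM in RM9 and at 0 to 0.202 TPM in MC38. These markers went against the organs of origin, and the tumors are called by the names of their lines.

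**Figure D1:**
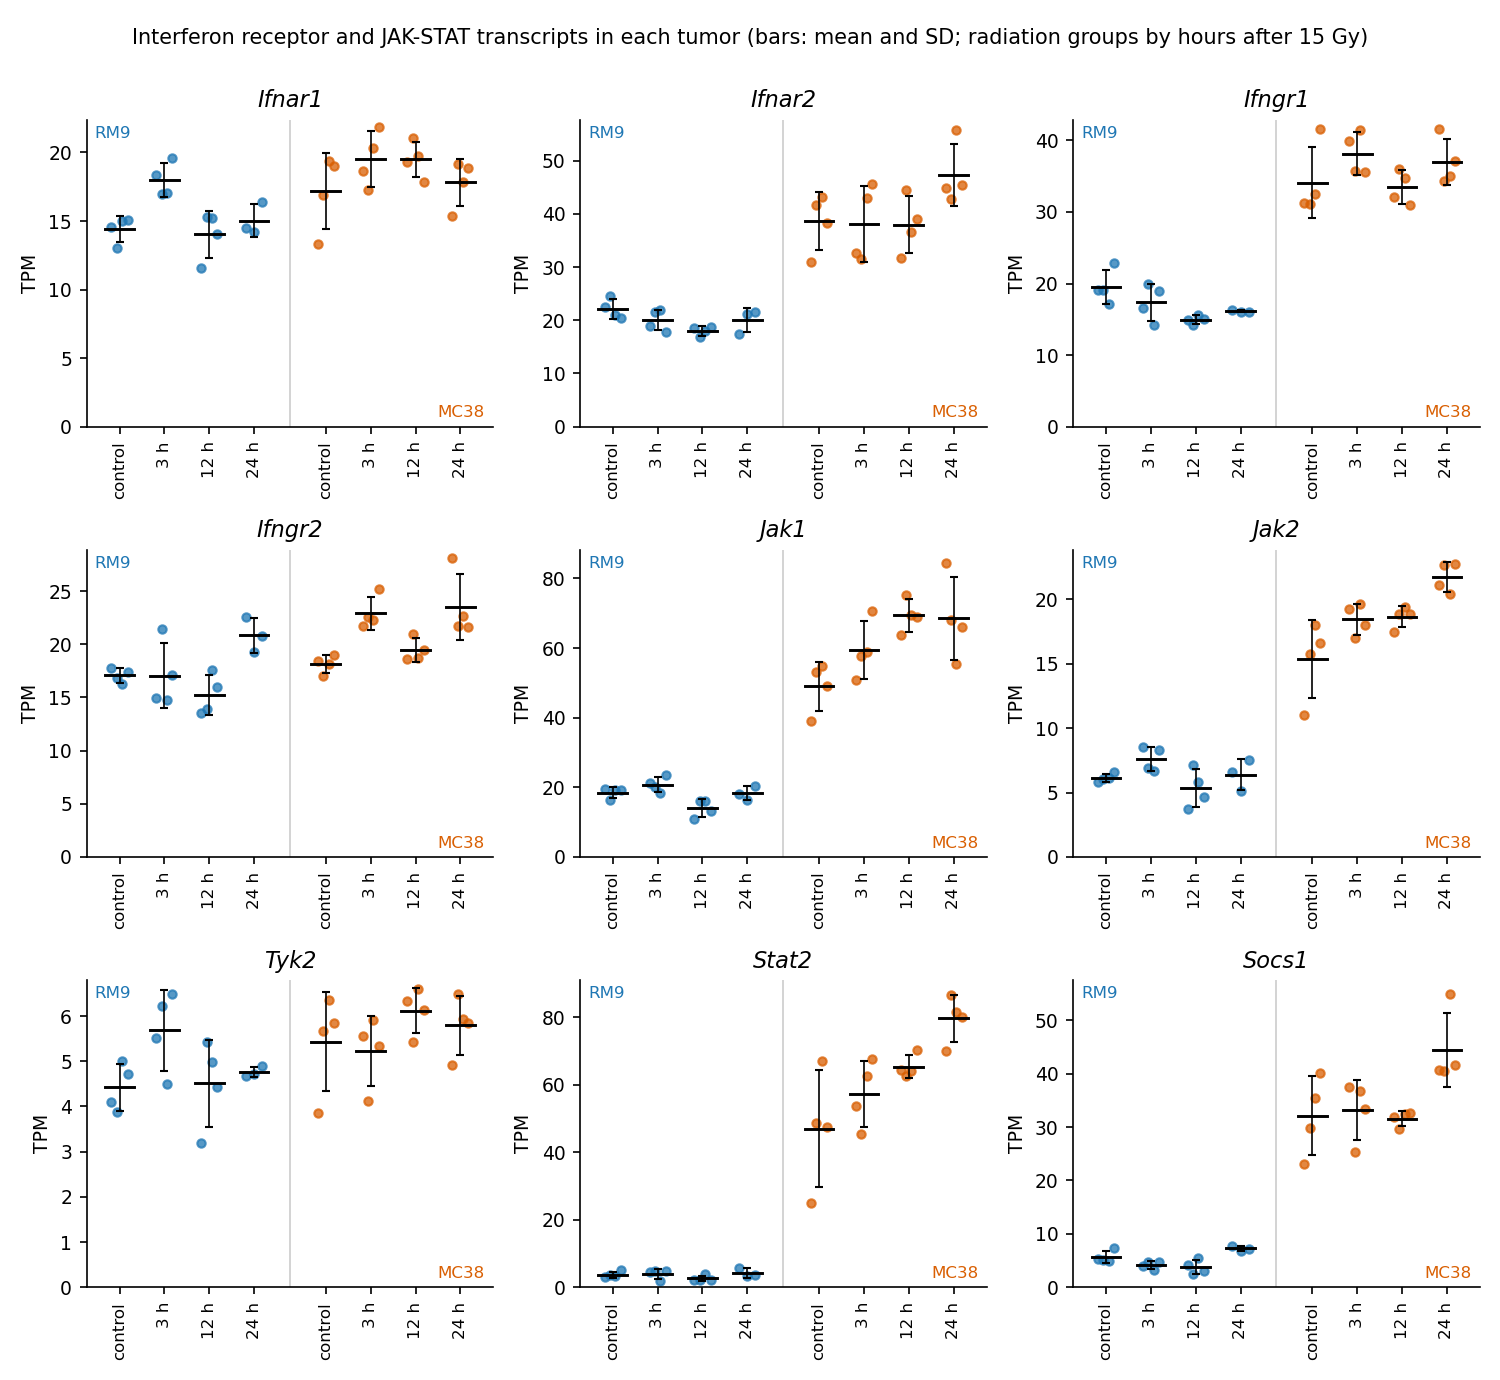
TPM of the 9 genes (vertical axes, from 0, each with its own scale) in every tumor of the 8 groups (horizontal axes: control and hours after 15 Gy), with 1 point per mouse, RM9 in blue and MC38 in orange, and black bars for the mean and SD. Stat2 and Socs1 lie far higher in MC38 than in RM9 (control means of 47.0 against 3.71 TPM and of 32.1 against 5.67 TPM), whereas Ifnar1 and Tyk2 overlap between the models.

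The first comparison was between the untreated tumors of both models. On the log2(TPM + 0.5) scale on which all fold changes are given, Stat2 was 10.8-fold and Socs1 5.24-fold higher in MC38 than in RM9, Jak1 was 2.59-fold and Jak2 2.35-fold higher, and the receptor chains ranged from no call to 1.72-fold. In RM9 control mice 1 to 4, Stat2 was at 2.95, 3.66, 3.20 and 5.04 TPM, and in MC38 control mice 1 to 4 it was at 24.9, 48.7, 66.9 and 47.4 TPM. Every MC38 tumor was above every RM9 tumor, and MC38 mouse 1 was well below the other MC38 mice. The log2 difference was 3.44 (SE 0.26, 95% interval 2.91 to 3.96, limma adjusted p = 4.53e-12). Socs1 was at 5.35, 5.12, 4.91 and 7.30 TPM in RM9 and at 23.0, 29.8, 35.4 and 40.2 TPM in MC38, again without overlap, with a log2 difference of 2.39 (SE 0.18, limma adjusted p = 8.67e-12).

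Among the kinases, Jak1, which serves both receptors, was at 19.5, 16.2, 19.1 and 19.2 TPM in RM9 control mice and at 39.0, 53.0, 54.8 and 49.2 TPM in MC38 control mice. Jak2, the partner of the interferon gamma receptor, was at 5.82, 6.04, 6.15 and 6.57 TPM in RM9 and at 11.02, 15.7, 18.0 and 16.6 TPM in MC38. Neither gene overlapped between the models. The log2 difference was 1.37 for Jak1 (SE 0.13, limma adjusted p = 7.75e-10) and 1.23 for Jak2 (SE 0.14, limma adjusted p = 2.57e-08). Tyk2, the kinase of IFNAR1, was at 3.89 to 5.01 TPM in RM9 and at 3.85 to 6.35 TPM in MC38, so the models overlapped. Its log2 difference of 0.25 (95% interval -0.05 to 0.56) did not pass the test (limma adjusted p = 0.124).

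Of the 4 receptor chains, Ifnar2 and Ifngr1 passed the test. Ifnar2, a chain of the type I receptor, was at 22.6, 24.5, 20.9 and 20.4 TPM in RM9 and at 31.1, 41.8, 43.3 and 38.4 TPM in MC38. Ifngr1, the ligand-binding chain of the interferon gamma receptor, was at 19.2, 19.0, 17.1 and 22.9 TPM in RM9 and at 31.2, 31.1, 32.5 and 41.5 TPM in MC38. Both were higher in every MC38 tumor, with log2 differences of 0.78 (SE 0.13, limma adjusted p = 3.64e-06) and 0.78 (SE 0.10, limma adjusted p = 1.89e-07). Their partner chains did not pass the test. Ifnar1 was at 13.03 to 15.1 TPM against 13.3 to 19.4 TPM (log2 difference 0.23, limma adjusted p = 0.0566), and Ifngr2 was at 16.2 to 17.8 TPM against 17.0 to 19.0 TPM (log2 difference 0.09, limma adjusted p = 0.463).

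In all, 6 of the 9 genes passed the test as higher in MC38, where 64.7% of the 15384 genes tested did, and 6 of 9 had ranges that did not overlap, where 50.8% of all genes did, so the count itself was near the background. The median log2 difference was 0.63 over all genes. Stat2 and Socs1 lay 2.81 and 1.76 above it, Jak1 and Jak2 0.75 and 0.61, and Ifnar2 and Ifngr1 0.16 and 0.16. Ifnar1, Ifngr2 and Tyk2 lay 0.39, 0.54 and 0.37 below it. The share of all genes at such distances was not computed. After median-ratio scaling, Stat2 (log2 2.81, limma adjusted p = 1.36e-11), Socs1 (1.75, limma adjusted p = 1.41e-09), Jak1 (0.71, limma adjusted p = 2.72e-06) and Jak2 (0.60, limma adjusted p = 3.97e-05) kept their calls. Ifnar2 (0.12) and Ifngr1 (0.13) lost theirs (limma adjusted p = 0.339 and 0.372). Ifnar1, Ifngr2 and Tyk2 changed sign and were called lower in MC38 on that scale (log2 -0.42, -0.57 and -0.36, limma adjusted p = 1.3e-06, 0.000432 and 0.00288). On that scale 33.5% of genes were called higher and 32.2% lower. Without MC38 control mouse 1 the count of genes called was 8 in place of 6, so at least 1 of Ifnar1 and Ifngr2 was called there, and Stat2 and Socs1 differed by 3.71 and 2.54.

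**Figure D2:**
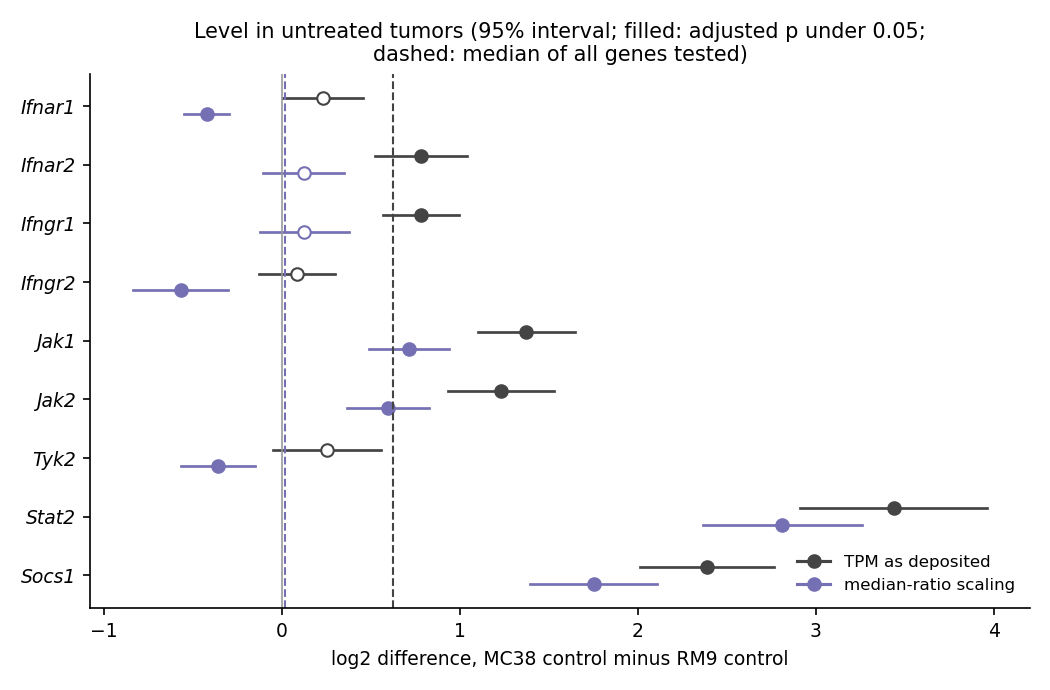
Log2 difference between MC38 and RM9 control tumors (horizontal axis) for the 9 genes (vertical axis), with TPM as deposited in grey and after median-ratio scaling in purple, where points are estimates, lines 95% intervals, filled points adjusted p under 0.05 and dashed lines the median of all genes tested. Stat2 (3.44 and 2.81) and Socs1 (2.39 and 1.75) lie to the right of both dashed lines on either scale, and Ifnar1, Ifngr2 and Tyk2 cross from the right to the left of 0.

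No label names a sequencing run, so a difference between the models cannot be told apart from one between runs. The makeup of the tissue differed as well. The pan-leukocyte gene Ptprc was at 4.98 to 6.98 TPM in RM9 control tumors and at 23.3 to 36.3 TPM in MC38 control tumors, 6 T cell markers summed to 5.03 to 9.45 against 16.3 to 24.9 TPM, and 8 macrophage markers summed to 405 to 652 against 618 to 1055 TPM. The summed level of the 5 epithelial markers ran the other way, at 1155 to 1395 against 0.573 to 1.10 TPM. Not every marker followed its sum. By the median over all tumors of a model, Cdh1 was at 0.441 TPM in RM9 and 0.566 TPM in MC38. The macrophage markers Mrc1 (9.95 and 5.01 TPM) and Lyz2 (247 and 239 TPM) and the T cell marker Cd4 (0.574 and 0.556 TPM) were not higher in MC38. The part of these cells in the levels of the 9 genes was not tested, and in whole tumors fewer cells of a type and less RNA per cell cannot be told apart.

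The order of the levels also differed between the models. In RM9 control tumors the mean TPM fell from Ifnar2 (22.1 ± 1.84, SD, n = 4) through Ifngr1 (19.6 ± 2.40), Jak1 (18.5 ± 1.52), Ifngr2 (17.1 ± 0.674) and Ifnar1 (14.4 ± 0.952) to Jak2 (6.14 ± 0.316), Socs1 (5.67 ± 1.10), Tyk2 (4.43 ± 0.525) and Stat2 (3.71 ± 0.935). Neighbors in that order overlapped except at the steps from Ifngr2 to Ifnar1 and from Ifnar1 to Jak2, so the receptor chains and Jak1 stood above the other kinases, Stat2 and Socs1. In MC38 control tumors the order was Jak1 (49.0 ± 7.05), Stat2 (47.0 ± 17.2), Ifnar2 (38.6 ± 5.44), Ifngr1 (34.1 ± 5.00), Socs1 (32.1 ± 7.40), Ifngr2 (18.1 ± 0.854), Ifnar1 (17.2 ± 2.78), Jak2 (15.3 ± 3.02) and Tyk2 (5.43 ± 1.09). Neighbors overlapped except from Socs1 to Ifngr2 and from Jak2 to Tyk2. Stat2 was thus the lowest of the 9 in RM9 and the second of the 9 in MC38. TPM is per length, but the deposited TPM of 4 genes was well above what their coverage implied. For Jak1, Ifngr1, Ifnar2 and Ifnar1 it was 3.03, 2.43, 2.20 and 1.57 times that value (medians over libraries). The ratio was 1.09 for Ifngr2 and 1.00 for Jak2, Tyk2, Stat2 and Socs1. The place of these 4 genes in the order is uncertain to that extent, and the reason for the ratios was not tested.

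The next question was how RT changed these levels within each model. The 3 RT groups of a model were each compared with the same control mice, so the comparisons share them. The clearest change was in MC38 at 24 h, where 4 of the 9 genes passed the test as higher, Stat2, Jak2, Jak1 and Ifngr2, against 13.3% of the 15729 genes tested, and 0 as lower (0.579%). At 12 h, 1 of 9 passed in each model, Jak1 as higher in MC38, where 28.4% of genes were called higher, and Ifngr1 as lower in RM9, where 8.55% of 14045 genes were called lower. With limma, 0 of 9 passed at 3 h in RM9 (0.228% of all genes), at 24 h in RM9 (0%) or at 3 h in MC38 (0.0699%). In each of these 3 comparisons 2 genes had an unadjusted p under 0.05, and Dunnett comparisons adjusted over all genes tested also called 0.

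**Figure D3:**
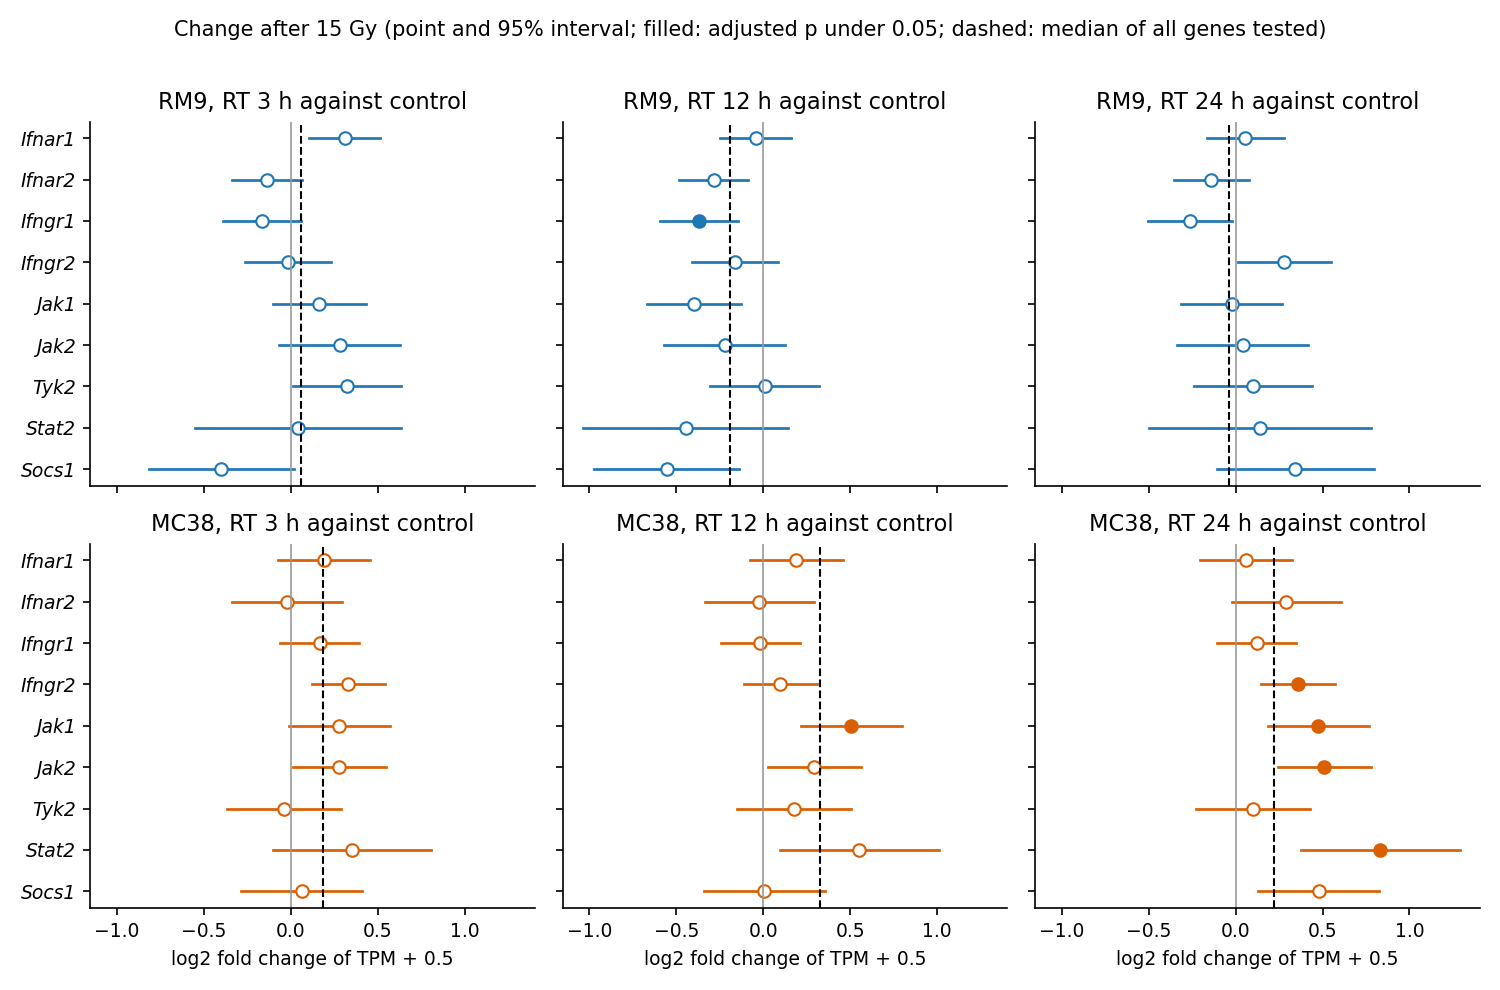
Log2 fold change of TPM + 0.5 against control (horizontal axes) for the 9 genes (vertical axes) at 3, 12 and 24 h after 15 Gy in RM9 (blue, top row) and MC38 (orange, bottom row), where points are estimates, lines 95% intervals, filled points adjusted p under 0.05 and dashed lines the median of all genes tested. The filled points are Ifngr1 in RM9 at 12 h (-0.37), Jak1 in MC38 at 12 h (0.51) and Stat2, Jak2, Jak1 and Ifngr2 in MC38 at 24 h (0.83, 0.51, 0.48 and 0.36).

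Stat2, the STAT of the type I response, had the largest change of the 9 genes in MC38 at 24 h. In MC38 it was at 53.8, 45.5, 62.5 and 67.7 TPM at 3 h, at 64.4, 62.7, 63.9 and 70.4 TPM at 12 h and at 70.1, 86.7, 81.5 and 80.2 TPM at 24 h, against 24.9 to 66.9 TPM in control mice. At 24 h each of the 4 tumors was above each control tumor, whereas at 3 and 12 h the highest control mouse lay above 3 of the 4 RT values. The log2 fold change at 24 h was 0.83 (1.78-fold, SE 0.21, 95% interval 0.38 to 1.29, limma adjusted p = 0.01996), and the exact permutation test gave p = 0.0286, the smallest that 4 against 4 mice can give. It was 0.57 after median-ratio scaling (limma adjusted p = 0.00595), when 2 of the 9 genes, Stat2 and Jak2, and 7.82% of all genes were called higher. It fell to 0.56 without control mouse 1 (limma adjusted p = 0.0228), and the call was lost without RT mouse 2 (adjusted p = 0.0549) or RT mouse 4 (0.0518). In RM9, Stat2 stayed at 1.78 to 5.79 TPM in all 15 tumors, and its changes of 0.04, -0.45 and 0.14 at 3, 12 and 24 h had intervals that reached from -1.04 to 0.78.

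Of the kinases, Jak2 in MC38 was at 21.1, 22.7, 20.4 and 22.7 TPM at 24 h, above all control values of 11.02 to 18.0 TPM (log2 0.51, SE 0.12, limma adjusted p = 0.0162). It kept its call after median-ratio scaling (0.25, limma adjusted p = 0.0280) and without control mouse 1 (0.36, limma adjusted p = 0.0141), and lost it without RT mouse 4 (adjusted p = 0.0511). Its values at 3 h (17.0 to 19.6 TPM) and 12 h (17.5 to 19.4 TPM) overlapped the control range.

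Jak1 in MC38 was at 63.7, 75.3, 69.5 and 69.0 TPM at 12 h and at 84.5, 68.2, 55.5 and 65.9 TPM at 24 h, against 39.0 to 54.8 TPM in control mice. No RT mouse at these times overlapped the controls, although mouse 3 at 24 h was only just above them. The log2 fold change was 0.51 at 12 h (SE 0.14, limma adjusted p = 0.0201) and 0.48 at 24 h (SE 0.14, limma adjusted p = 0.0317), where the median over all genes was 0.33 and 0.22. Neither call held after median-ratio scaling (0.16 and 0.21, limma adjusted p = 0.375 and 0.270) or without control mouse 1 (0.40 and 0.37, limma adjusted p = 0.0553 and 0.0873). The 12 h call was also lost without RT mouse 2 (adjusted p = 0.0590) or 4 (0.0509), and the 24 h call without control mouse 4 (0.0627) or RT mouse 1, 2 or 4 (0.0709, 0.0723 and 0.0693). Tyk2 passed at no time in either model, with changes between -0.04 and 0.32.

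In RM9, Jak1 was at 10.9, 16.2, 16 and 13.2 TPM at 12 h against 19.5, 16.2, 19.1 and 19.2 TPM in control mice. All 4 RT values lay below the controls, RT mouse 2 (16.204 TPM) only just below control mouse 2 (16.224 TPM), and the change of -0.40 (SE 0.13) did not pass the test (limma adjusted p = 0.0589; exact permutation p = 0.0286). Without RT mouse 3 it did (adjusted p = 0.0497). Jak2 in RM9 was at 8.54, 6.89, 6.69 and 8.31 TPM at 3 h, above the control values of 5.82 to 6.57 TPM, with a change of 0.28 that did not pass either (SE 0.16, limma adjusted p = 0.307; exact permutation p = 0.0286). For both genes the permutation p is fixed by the lack of overlap of 4 against 4 mice and adds no evidence.

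Among the receptor chains, Ifngr2, the accessory chain for interferon gamma, passed the test in MC38 at 24 h. It was at 28.1, 21.7, 22.7 and 21.6 TPM there and at 21.7, 22.6, 22.3 and 25.2 TPM at 3 h, against 18.4, 17.0, 18.2 and 19.0 TPM in control mice, and neither time overlapped the controls. The change was 0.36 at 24 h (SE 0.10, limma adjusted p = 0.0261) and 0.33 at 3 h (SE 0.10, limma adjusted p = 0.142). Mouse 1 at 24 h stood above the others, and the call was lost without it (adjusted p = 0.0564) and without control mouse 2 (0.0620). After median-ratio scaling the 24 h change was 0.10 (limma adjusted p = 0.695). In RM9, Ifngr2 was also higher at 24 h in each of the 3 mice, at 22.5, 19.3 and 20.7 TPM against 16.2 to 17.8 TPM, with a change of 0.28 (SE 0.13) that did not pass (limma adjusted p = 0.971; exact permutation p = 0.0286).

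Ifngr1 fell in RM9 at 12 h, to 14.9, 14.2, 15.6 and 15.1 TPM from 19.2, 19.0, 17.1 and 22.9 TPM in control mice, without overlap. The log2 fold change was -0.37 (SE 0.11, limma adjusted p = 0.0460), and the median over all genes was -0.19. The call depended on most of the mice and on the scale. After median-ratio scaling the change was -0.15 (limma adjusted p = 0.456), 0 of the 9 genes were called lower and 0.0427% of all genes were. It held without control mouse 3 (adjusted p = 0.0305) and was lost without any one of the other 7 mice of the comparison (adjusted p from 0.0563 to 0.1499). At 24 h in RM9 it was at 16.3, 16.05 and 16.1 TPM, again below all controls, with a change of -0.26 (SE 0.11, limma adjusted p = 0.971; exact permutation p = 0.0571). In MC38, Ifngr1 ranged from 30.99 to 41.5 TPM over all 16 tumors, and its changes of -0.02 to 0.17 passed at no time.

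The type I receptor chains did not pass at any time on the TPM scale. Ifnar1 in RM9 was at 18.4, 16.9, 17.1 and 19.6 TPM at 3 h, above the control values of 14.6, 13.03, 15.0 and 15.1 TPM (log2 0.31, SE 0.10, limma adjusted p = 0.125; exact permutation p = 0.0286), and 3 of the 7 later tumors were above the control range and 1 was below it. Ifnar2 in RM9 was at 18.6, 16.8, 17.9 and 18.8 TPM at 12 h, below the control values of 20.4 to 24.5 TPM (log2 -0.29, SE 0.09, limma adjusted p = 0.0658; exact permutation p = 0.0286). In MC38 the changes of Ifnar1 were 0.19, 0.19 and 0.06 and those of Ifnar2 were -0.02, -0.02 and 0.29 at 3, 12 and 24 h, and both overlapped the controls at each time. After median-ratio scaling, Ifnar2 was the 1 member called in MC38 at 12 h, as lower (-0.37, limma adjusted p = 0.0285), where 9.94% of genes were called lower and 6.37% higher. No other change of the 9 genes after RT that missed the test on the TPM scale passed it on that scale. The deposited TPM of Ifnar2 was 1.80 to 2.51 times what its coverage implied, depending on the library. For Ifnar1 this ratio was 1.51 to 1.68. The part of this spread in the changes of these 2 genes was not tested.

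Socs1, the inhibitor, was at 40.7, 40.4, 54.9 and 41.7 TPM in MC38 at 24 h, against 23.0, 29.8, 35.4 and 40.2 TPM in control mice. Each RT tumor was above each control tumor, by a narrow margin for mouse 2. The change of 0.48 (1.39-fold, SE 0.16) did not pass over all genes (limma adjusted p = 0.0622; exact permutation p = 0.0286). It was 0.22 after median-ratio scaling (limma adjusted p = 0.299) and 0.33 without control mouse 1 (limma adjusted p = 0.177), and it passed without control mouse 3 (adjusted p = 0.0439) or control mouse 4 (0.0376). At 3 and 12 h the changes were 0.06 and 0.00. In RM9, Socs1 was at 4.04, 4.78, 3.16 and 4.72 TPM at 3 h, below the control values of 5.35, 5.12, 4.91 and 7.30 TPM, and at 7.75, 6.84 and 7.17 TPM at 24 h, near the top of the control range. The 3 h change was -0.40 (SE 0.19, limma adjusted p = 0.240; exact permutation p = 0.0286), and the 12 h change of -0.56 and the 24 h change of 0.34 did not pass either (limma adjusted p = 0.0773 and 1).

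Counts of genes without overlap are read against the share of all genes. With 4 mice beyond all 4 controls, the exact permutation p given above is always 0.0286 and only repeats the lack of overlap. In MC38 at 24 h, 5 of the 9 genes lay above the controls in every mouse (14.8% of all genes), at 12 h 1 of 9 (34.5%) and at 3 h 1 of 9 (7.19%). In RM9, 2 of 9 lay above and 1 below at 3 h (9.86% and 2.87% of all genes), 3 of 9 lay below at 12 h (19.4%), and 1 lay above and 1 below at 24 h (2% and 2.24%). The median log2 fold change of the 9 genes was 0.04, -0.29 and 0.06 in RM9 at 3, 12 and 24 h, where all genes had 0.06, -0.19 and -0.04. In MC38 it was 0.19, 0.18 and 0.36, where all genes had 0.19, 0.33 and 0.22. At 12 h in MC38 the group therefore lay below the typical gene, and 2 of the 9 genes, Jak1 and Stat2, exceeded it.

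Markers of other cells, on the TPM scale, also changed at 12 and 24 h. In RM9 at 12 h, Ptprc (2.52 to 3.61 TPM against 4.98 to 6.98 TPM) was called lower with limma, as were 3 of 8 macrophage markers (summed level 248 to 463 against 405 to 652 TPM) and 4 of 6 T cell markers (1.56 to 4.81 against 5.03 to 9.45 TPM). Of all genes, 8.55% were called lower there. The 5 epithelial markers summed to 669 to 1137 TPM there against 1155 to 1395 TPM in control mice, without overlap, and 1 of them was called lower. In MC38 at 12 h, Ptprc (14.2 to 26.8 against 23.3 to 36.3 TPM), 4 of 8 macrophage markers (248 to 604 against 618 to 1055 TPM) and 4 of 6 T cell markers (8.88 to 17.1 against 16.3 to 24.9 TPM) were called lower. Of the 15729 genes tested, 411 were called lower there. Called higher at 12 h were 1 of 6 fibroblast, 1 of 5 B and NK cell and 1 of 3 colon markers, where 28.4% of all genes were. At 24 h in MC38, 1 macrophage and 3 T cell markers were called lower (0.579% of all genes). Called higher were 2 of 5 endothelial, 1 of 5 B and NK cell and 1 of 3 colon markers (13.3% of all genes). The summed level of 6 neutrophil markers was 20.4 to 36.8 against 11.3 to 25.1 TPM with 0 of 6 called. The 6 skeletal muscle markers summed to 2.95 to 914 TPM at 3 h and 2.75 to 956 TPM at 12 h in RM9 against 246 to 2324 TPM in control mice, and to 5.68 to 474 TPM at 12 h in MC38 against 18.2 to 11422 TPM, with median log2 changes of -4.96, -4.18 and -3.73 and 0 of 6 called each time. The summed level of 6 fibroblast markers was 313 to 1091 TPM over all MC38 tumors and 494 to 1380 TPM over all RM9 tumors, and that of 5 B and NK cell markers was 5.24 to 13.9 TPM and 0.319 to 1.21 TPM. None of these lists had all markers at 0 in any group. Their part in the changes of the 9 genes was not tested.

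Whether the RT response differed between the models was tested as the MC38 change minus the RM9 change. At 12 h, 3 of the 9 genes differed, Jak1 by 0.90 (SE 0.19, limma adjusted p = 0.00219), Stat2 by 1.00 (SE 0.36, limma adjusted p = 0.0286) and Jak2 by 0.52 (SE 0.20, limma adjusted p = 0.0424), each with a higher value in MC38 and a lower one in RM9. This was in a setting where 45.1% of 15384 genes differed in that direction and the median gene differed by 0.50. After median-ratio scaling the differences were 0.38, 0.51 and 0.01 and 0 of 9 passed (limma adjusted p = 0.164, 0.362 and 0.985), where 1.57% of genes did. The Jak1 difference kept its call without each of the 16 mice in turn. The Stat2 difference lost it without MC38 control mouse 1 (adjusted p = 0.0933), RM9 control mouse 4 (0.0685) or RM9 RT mouse 1 or 4 (0.0574 and 0.0528). The Jak2 difference lost it without 9 of the 16 mice, namely MC38 control mouse 1, MC38 RT mice 2, 3 and 4, RM9 control mice 2, 3 and 4 and RM9 RT mice 1 and 4 (adjusted p from 0.0540 to 0.128). At 3 and 24 h, limma called 0 of 9 (0% and 2.05% of all genes in either direction), with 2 and 4 genes at an unadjusted p under 0.05. At 24 h the difference for Stat2 was 0.69, with a 95% interval of -0.08 to 1.46, so the rise of Stat2 in MC38 was not shown to differ from RM9.

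The partners and ligands of the pathway were read beside these genes. Irf9, the partner of STAT2, was at 6.27 to 8.66 TPM in RM9 control mice and at 26.9 to 44.4 TPM in MC38 control mice, and RT changed it at no time past the test (log2 -0.60 to 0.31). Ifnb1, which encodes interferon beta, was at 0.663, 0.616, 1.01 and 0.443 TPM in MC38 control mice and at 7.39, 2.40, 4.33 and 3.39 TPM at 24 h, without overlap (log2 1.97, limma adjusted p = 0.00042). In RM9 it did not exceed 0.084 TPM in any tumor. The difference between the models in the 24 h change of Ifnb1 was 2.00 (limma adjusted p = 0.000385; 1.73 and 0.00223 after median-ratio scaling). Ifng, which encodes interferon gamma, was at 0 to 0.298 TPM in RM9 and at 0.720 to 3.95 TPM in MC38 and passed at no time.

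**Figure D4:**
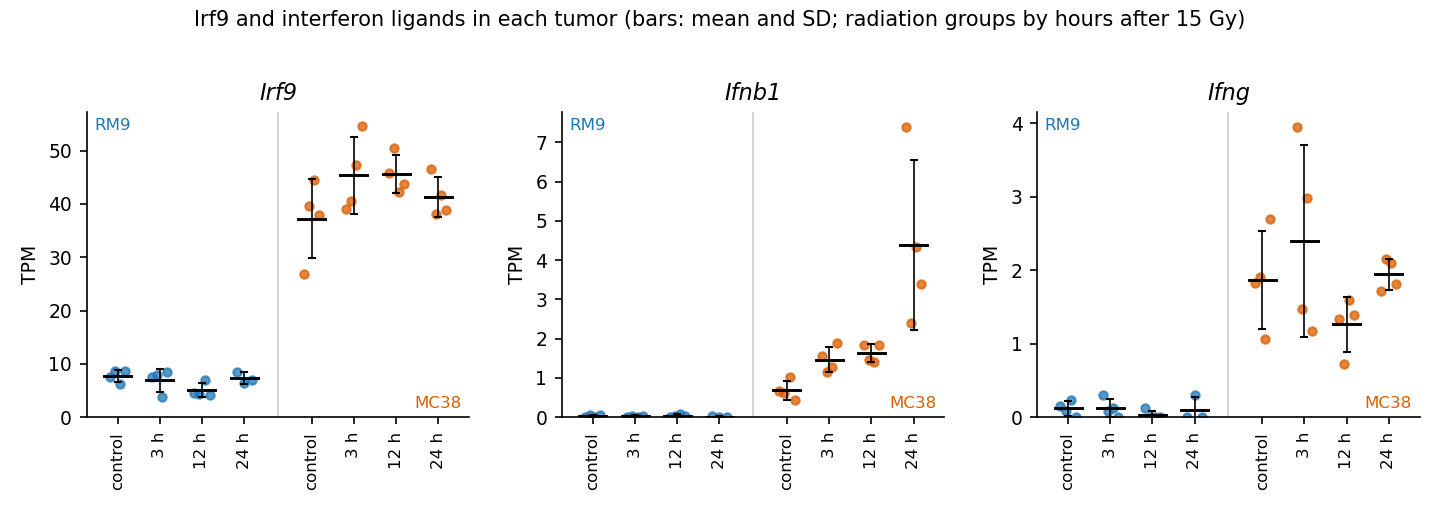
TPM (vertical axes, from 0, each with its own scale) of Irf9, Ifnb1 and Ifng in every tumor of the 8 groups (horizontal axes: control and hours after 15 Gy), with 1 point per mouse, RM9 in blue and MC38 in orange, and black bars for the mean and SD. In MC38 at 24 h Ifnb1 (2.40 to 7.39 TPM) lies above all control tumors, while Irf9 and Ifng overlap them.

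Wider lists of the pathway were counted in the same comparisons. Of 17 interferon target genes, 17 were called higher in MC38 than in RM9 control tumors on both scales (64.7% of all genes, and 33.5% after median-ratio scaling). They were led by Rsad2 (log2 5.36), Cxcl10 (4.77) and Ifi44 (4.601). In MC38 at 24 h, 16 of 17 were called higher (13.3% of all genes), and 13 after median-ratio scaling (7.82%). They were led by Mx1 (log2 1.67, limma adjusted p = 0.00137), Ifit3 (1.49, limma adjusted p = 0.000367) and Mx2 (1.47, limma adjusted p = 0.00375). The list's median was 0.96. Cxcl9 was the member that was not called at 24 h, and at 12 h it was called lower (-0.63, limma adjusted p = 0.0331), with Oasl1 (0.55) and Oasl2 (0.59) called higher, where 28.4% of all genes were. After median-ratio scaling Cxcl9 kept its call (-0.97, limma adjusted p = 0.0276), and Oasl1 and Oasl2 lost theirs (limma adjusted p = 0.297 and 0.173). In RM9 at 12 h, Ifit3 (-1.41, limma adjusted p = 0.0447) and Rtp4 (-1.18, limma adjusted p = 0.0489) were called lower, as were 8.55% of all genes. At 3 and 24 h in RM9, 0 of 17 were called. Neither RM9 call held after median-ratio scaling (limma adjusted p = 0.188 and 0.202). The change at 12 h was called higher in MC38 than in RM9 for 13 of the 17 targets, where 45.1% of all genes were. After that scaling it was for 0 of 17, where 1.57% of all genes were. At 24 h the difference between the models passed for 0 of 17 targets on either scale (median difference 0.80, and 0.55 after scaling), so the rise of these genes in MC38 was not shown to differ from RM9.

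Of 7 other kinases, STATs and STAT partners, all 7 were higher in MC38 control tumors (64.7% of all genes), and after median-ratio scaling 4 were higher (33.5%) and 1, Stat6, was lower (32.2%). In MC38 at 24 h, 2 were called higher, Stat5a (0.87, limma adjusted p = 0.00182) and Stat3 (0.65, limma adjusted p = 0.00481), and both kept their calls after median-ratio scaling (13.3% and 7.82% of all genes). At 12 h in MC38, 4 were called higher, where 28.4% of all genes were, Stat5a (0.68), Stat5b (0.46), Stat6 (0.41) and Stat3 (0.38), and after scaling 1 was higher, Stat5a, and 1 lower, Stat4. Of 16 other inhibitors, 4 were called higher in MC38 at 24 h, namely Usp18 (1.03, limma adjusted p = 0.00252), which acts on the type I receptor, Cish (0.89, limma adjusted p = 0.00912), Socs5 (0.83, limma adjusted p = 0.0192) and Socs3 (0.45, limma adjusted p = 0.0273), against 13.3% of all genes. After median-ratio scaling Socs3 lost its call (0.19, limma adjusted p = 0.339) and the other 3 kept theirs. At 12 h, Cish (0.62), Ptpn11 (0.44) and Pias2 (0.39) were called higher, as were 28.4% of all genes. The phosphatase Ptpn6, which blood cells carry, was called lower (-0.80, limma adjusted p = 0.0206). After scaling 0 of 16 were higher at 12 h, and Ptpn6 was still lower (-1.14, limma adjusted p = 0.00769). In RM9, Ptpn2, a phosphatase of JAK1, was called lower at 12 h (-0.42, limma adjusted p = 0.0232). It lost that call after scaling (-0.21, limma adjusted p = 0.176) and was called lower at 3 h on that scale (-0.27, limma adjusted p = 0.0496). Between control tumors, 10 of 16 inhibitors were higher in MC38, near the 64.7% of all genes, and 3 were lower. After scaling 5 were higher and 6 lower, near the 33.5% and 32.2% of all genes.

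Of 21 interferon ligand genes, 17 stayed under 0.5 TPM in every library. Between control tumors 4 were called higher in MC38 (64.7% of all genes), led by Ifng (1.90, limma adjusted p = 1.62e-07), Ifnb1 (1.16, limma adjusted p = 5.07e-06) and Ifnz (0.55, limma adjusted p = 0.000909). Ifna4 (0.93, limma adjusted p = 0.0316) and Ifnb1 were called higher in MC38 at 24 h, and Ifnb1 at 12 h (0.86, limma adjusted p = 0.0236). After median-ratio scaling Ifnb1 kept its call at 24 h (1.79, limma adjusted p = 0.000877) and lost it at 12 h (0.63, limma adjusted p = 0.114), Ifna4 lost its call at 24 h (0.86, limma adjusted p = 0.0504), and 3 of 21 were called higher between control tumors. Of the 2 other receptor genes, Il10rb, the neighbor of Ifnar1 and Ifnar2, was called higher in MC38 at 24 h (0.31, limma adjusted p = 0.0349; 0.05 and 0.770 after median-ratio scaling), and Ifnlr1 was near 0. Of 6 radiation response genes, 4 were called higher in RM9 at 3 h, 2 at 12 h and 0 at 24 h, and 2, 3 and 2 in MC38. After scaling the counts were 4, 2 and 0 in RM9 and 1, 1 and 2 in MC38, where 1 was called lower at 12 h and at 24 h. Cdkn1a was among those called higher at 3 h in both models (0.96 and 0.80, limma adjusted p = 0.0146 and 0.0201), and after scaling in RM9 (0.89, limma adjusted p = 0.00538) but not in MC38 (0.58, limma adjusted p = 0.0805).

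Across the 31 tumors, after median-ratio scaling and with each model's mean removed, the 9 genes did not move as a block. The correlation of their 36 pairs ranged from -0.33 to 0.60 with a median of 0.04, and the closest pairs were Ifngr1 with Ifngr2 (0.60), Jak1 with Jak2 (0.59) and Stat2 with Socs1 (0.57). The genes most like Stat2 among 13150 were Parp14 and Oas2 (r = 0.91 and 0.91), and those most like Socs1 were Phf11b and Slfn2 (0.86 and 0.86). Those most like Ifngr2 were Aldh1a2 and Thbd (0.86 and 0.85), most like Ifngr1 C130074G19Rik and Tnfaip8l2 (0.84 and 0.83), most like Jak1 Gm15163 and Clic4 (0.86 and 0.84) and most like Jak2 Slfn10-ps and Ppp6r1 (0.82 and 0.81). The 3 genes with the weakest likeness were Ifnar2, with Gm15487 and Ier2 (0.80 and 0.79), Ifnar1, with Extl3 and Slc35e1 (0.76 and 0.74), and Tyk2, with Wdfy2 and Atp11b (0.72 and 0.69). The 31 points share the treatment groups, and these values describe the tumors and carry no test.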

How the data were processed

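Whole-tumor RNA of 31 mice was sequenced as single-end reads of 75 bases from stranded mRNA libraries. The authors deposited 1 table per library with TPM, FPKM and coverage per gene. The deposited TPM sums to a fixed total per library, mitochondrial genes included. FPKM and coverage (mean read depth) were also deposited and served to estimate mapped reads and for an alternative. The submitters' notes name GRCm39 and bcl2fastq 2.17. The aligner, counting program and annotation are not given in the sources used here. Of the gene IDs, 45137 of 46072 were in GENCODE M21, all on the same chromosome and 91.1% with the same start or end. A gene in more than 1 row was summed, which concerned 9 to 23 rows per library.

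Log2(TPM + 0.5) was fitted with limma 3.58.1 (R 4.3.3, eBayes with trend) for each model over its 4 groups, and over 8 groups for differences between models. The fit took genes whose TPM averaged 0.5 or more, and the members and listed genes. P-values were adjusted by Benjamini-Hochberg over all genes tested and called under 0.05. Single genes were compared by two-sided exact permutation tests of mean TPM. For 4 against 4 mice without overlap this p is always 0.0286, so it is no evidence beyond the lack of overlap. Dunnett comparisons, which the study used, were an alternative and were here adjusted over all genes tested. The paper describes no adjustment over genes, so its rule was less strict. Other pseudocounts, filters and scalings, a replicate block and leaving out each mouse were further alternatives. All 9 genes are named. Their tests are printed for each gene that was called or whose groups did not overlap, and other changes by time or range. The lists were interferon target genes, ligands, other receptors, other kinases and STATs, inhibitors, radiation response genes and cell markers, of which Irf9, Ifnb1 and Ifng are named throughout and otherwise up to 3 called genes with the largest fold change, and other genes of small counts were named after their values were seen. The members and lists were chosen with earlier results of these data known. The fit was tested on simulated data. Promoters came from a RefSeq table (GRCm38.p6), in which all 9 members matched. Read counts were not used here, so counting errors are not given. No column of per-sample values was left out. Some genes of the lists are not reported here.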

Additional observations from a re-analysis of the deposited data

Results flagged for a closer look

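Single tumors stood far from the other mice of their group in 6 of 63 groups of 4 mice or more looked at, against about 1 in 20 by chance. These were Ifngr1 in MC38 control mouse 4 (41.5 TPM, others 31.1 to 32.5), Ifngr2 in MC38 mouse 1 at 24 h (28.1 TPM, others 21.6 to 22.7), Jak1 in RM9 control mouse 2 (16.2 TPM, others 19.1 to 19.5), Stat2 in RM9 mouse 3 at 3 h (1.78 TPM, others 4.54 to 4.88), Stat2 in RM9 mouse 3 at 12 h (3.82 TPM, others 2.13 to 2.28) and Socs1 in MC38 mouse 3 at 24 h (54.9 TPM, others 40.4 to 41.7). The RM9 mouse 3 at 3 h was the lowest of its group for 7 of the 9 genes.

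The change at 12 h differed between the models by limma's test of the difference for Jak1 (0.90, adjusted p = 0.00219), Jak2 (0.52, adjusted p = 0.0424) and Stat2 (1.00, adjusted p = 0.0286). The median gene differed by 0.50 in the same comparison, and the differences were 0.38, 0.01 and 0.51 after median-ratio scaling.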

How the results depend on the processing

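The number of the 9 genes called was 0 under every alternative at 3 h in both models, at 24 h in RM9 and for the difference between models at 3 h, and 6 to 8 between control tumors. At 12 h in RM9 the 1 call became 0 with no filter on low values, median-ratio scaling, TPM without mitochondrially encoded genes, eBayes without trend, coverage scaled to library depth (an alternative chosen after seeing the data), only the 2 groups compared and Dunnett comparisons, and 2 with a mean TPM of at least 5. Leaving out each mouse gave 0 to 2 (2 without RT mouse 3). At 12 h in MC38 the 1 call became 2 with a mean TPM of at least 5 or with a replicate block, and 0 with only the 2 groups compared or Dunnett comparisons, and leaving out each mouse gave 0 to 3 (3 without control mouse 3). At 24 h in MC38 the 4 calls became 2 with median-ratio scaling, without mitochondrially encoded genes or with Dunnett comparisons, 0 with only the 2 groups compared, and 1 to 5 with each mouse left out (1 without RT mouse 4, 2 without RT mouse 1 or 2, 5 without control mouse 3). Of the differences between models at 12 h, 3 calls became 1 with no filter, without mitochondrially encoded genes or with coverage, 0 with median-ratio scaling, and 1 to 5 with each mouse left out (1 without RM9 control mouse 4, RM9 RT mouse 1 or 4 or MC38 control mouse 1, 5 without MC38 control mouse 4). At 24 h, 0 became 1 with coverage. The median log2 fold change of the 9 genes moved to -0.071 in RM9 and -0.15 in MC38 at 12 h with median-ratio scaling, and ranged from -0.073 to 0.22 at 3 h in RM9 with each mouse left out. Over all genes, MC38 at 12 h had 4467 higher and 411 lower calls, 1002 and 1564 with median-ratio scaling, 2642 and 323 with no filter and 2 and 0 with only the 2 groups compared. RM9 at 12 h had 10 and 1201, 11 and 6 with median-ratio scaling, 12 and 74 without mitochondrially encoded genes, 9 and 62 with coverage, 14 and 557 with no filter and 3 and 212 with only the 2 groups. MC38 at 24 h had 2088 and 91, 1230 and 1285 with median-ratio scaling and 283 and 12 with only the 2 groups. The difference between models at 12 h had 6940 and 73, and 239 and 201 with median-ratio scaling. The cause of these changes was not tested. Deviations of same-numbered mice correlated from -0.483 to 0.554 in MC38 and from -0.389 to 0.317 in RM9. They exceeded 0.1 in 7 of 24 pairs in MC38 and 5 of 21 in RM9. Differently numbered mice were not set beside them, so this check cannot decide whether mouse numbers pair the tumors. With the replicate block, Socs1 in MC38 at 24 h was also called (limma adjusted p = 0.0444). Dunnett comparisons, adjusted over all genes tested, were not run for control tumors or differences between models. Low TPM rests on few reads, which limits Ifnb1 and Ifng most.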

Other observations

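The gene Gm21970, which overlaps Ifnar2 on the same strand, was listed at 0 in 29 of 31 libraries and at 3.09 TPM in MC38 mouse 2 at 12 h and 3.32 TPM in MC38 mouse 2 at 24 h.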
